A study of Homo sapiens with 12 samples.

Results

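RNA levels of 10 genes that license or fire origins of DNA replication were followed across the 4 conditions of an RNA-sequencing experiment in HCT116 cells, a human colorectal carcinoma line. The genes were chosen by name: ORC1, ORC6, CDC6, CDT1, GMNN, CDC7, CDC45, GINS1, GINS2 and MCM10. This choice was made with earlier results of these data known, so that counts of these genes are a description only. All 10 were found among the 58233 genes of the deposited count table, and all 10 were among the 16657 genes that passed the filter on low counts. The study compared parental HCT116 Tet-OsTIR1 cells with the SDS22-degron line derived from them, in which both alleles of PPP1R7, the gene for the protein phosphatase 1 regulator SDS22, encode a fusion with mAID and mClover. Both lines carry a transgene for the plant F-box protein TIR1 that is switched on by doxycycline (Dox), after which the auxin IAA directs proteins with the mAID tag to the proteasome. Each line was either untreated or exposed to Dox (2 µg/ml) together with IAA (500 µM) over 48 h, and each of the 4 groups held 3 libraries that the labels call biological replicates, 12 in total. The treated groups thus share both agents and induced TIR1, whereas tagged SDS22 is made in the degron line alone, of which 1 line was used.

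Origins are licensed in G1 phase, when the origin recognition complex (ORC), CDC6 and CDT1 load the MCM helicase onto DNA. Licensed origins fire in S phase under the CDC7 and cyclin-dependent kinases, of which CDC7 acts on the loaded helicase. CDC45 and the GINS complex join the loaded helicase to form the active replicative helicase. Geminin, the product of GMNN, binds CDT1 and prevents origins from being licensed again in the same cycle. Several of these genes are known targets of E2F transcription factors and are mainly transcribed in cycling cells.

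Counts are given per gene, and the deposited table places the genes on GRCh38. Of the licensing genes, it lists ORC1 (ENSG00000085840) at chr1:52372829-52404459 on the minus strand and ORC6 (ENSG00000091651) at chr16:46689643-46698394 on the plus strand. The loading factors are CDC6 (ENSG00000094804) at chr17:40287633-40304657 on the plus strand and CDT1 (ENSG00000167513) at chr16:88803213-88809258 on the plus strand. The licensing inhibitor is GMNN (ENSG00000112312) at chr6:24774931-24786099 on the plus strand. Of the firing genes, it lists CDC7 (ENSG00000097046) at chr1:91500893-91525764 on the plus strand and CDC45 (ENSG00000093009) at chr22:19479459-19520612 on the plus strand. The GINS genes are GINS1 (ENSG00000101003) at chr20:25407727-25452628 on the plus strand and GINS2 (ENSG00000131153) at chr16:85676198-85690073 on the minus strand. The last is MCM10 (ENSG00000065328) at chr10:13161554-13211104 on the plus strand.

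The total count per library was between 12133915 and 14657508. The common biological coefficient of variation was 7.48%. The mRNA of the targeted gene, PPP1R7, was at 43.7 ± 3.82 and 45.4 ± 4.11 CPM in untreated and treated parental cells, and at 44.0 ± 2.95 and 47.9 ± 3.39 CPM in untreated and treated SDS22-degron cells (mean ± SD, n = 3; CPM, counts scaled to the same library size after TMM normalization, are used throughout). Its log2 fold change upon Dox/IAA in SDS22-degron cells was 0.12 (adjusted p = 0.265), but since the degron acts on the protein, mRNA does not check the depletion. All 6 epithelial markers passed the filter and summed to between 2833 and 4357 CPM in every library. Of the 5 fibroblast markers, COL1A1 alone passed it, and their sum was 9.96 to 13.9 CPM in untreated and 17.3 to 22.9 CPM in treated parental cells, against 13.8 to 15.8 and 21.3 to 31.7 CPM in the degron line. COL1A2 and DCN had no count in any library. The 4 leukocyte markers summed to at most 0.577 CPM and the 2 endothelial markers to at most 0.0824 CPM. In some libraries the 10 genes stood apart from their group together: treated parental replicate 2 had the highest level of its group for 10 of 10 genes, treated SDS22-degron replicate 1 for 9 and untreated parental replicate 2 for 8. Results that change without these libraries are given with and without them.

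Since the genes moved together, their promoters are shown first. RefSeq promoters on GRCh38.p14, running from 250 bases before to 50 bases after each start site, were found for all 10 genes, with 14 promoters in total. The letters TTTCCCGC, TTTCGCGC, TTTGCCGC and TTTGGCGC, which are forms of the E2F site, were searched on both strands. At least 1 of them was found for 6 of the 10 genes, compared with 3.99% of 27305 genes with a promoter of the same length. Counted by promoter, they were in 6 of 14 against 3.31% of 35116. The 6 promoters are given from 100 bases before to 20 bases after the start site, 5′ to 3′ along the strand of the gene, with the match in capitals (read as GCGGGAAA or GCGCCAAA where it lies on the other strand). They are CDC6 (chr17:40287779-40287898, plus strand), CDT1 (chr16:88803689-88803808, plus strand), GMNN (chr6:24775313-24775432, plus strand), GINS1 (chr20:25407573-25407692, plus strand), GINS2 (chr16:85688935-85689054, minus strand) and CDC7 (chr1:91501012-91501131, plus strand).
CDC6: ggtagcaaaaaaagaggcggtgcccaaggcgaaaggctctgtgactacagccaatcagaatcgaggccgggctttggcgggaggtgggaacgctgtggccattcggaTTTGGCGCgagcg
CDT1: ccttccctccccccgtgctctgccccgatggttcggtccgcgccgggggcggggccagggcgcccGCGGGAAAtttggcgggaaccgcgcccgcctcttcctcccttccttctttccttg
GMNN: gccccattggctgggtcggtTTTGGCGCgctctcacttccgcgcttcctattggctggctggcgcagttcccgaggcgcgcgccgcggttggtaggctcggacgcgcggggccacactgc
GINS1: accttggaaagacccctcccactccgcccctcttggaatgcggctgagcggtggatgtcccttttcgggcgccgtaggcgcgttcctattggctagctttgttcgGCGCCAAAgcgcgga
GINS2: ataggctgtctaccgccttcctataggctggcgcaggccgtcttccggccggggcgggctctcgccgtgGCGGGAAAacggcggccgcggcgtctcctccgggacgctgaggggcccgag
CDC7: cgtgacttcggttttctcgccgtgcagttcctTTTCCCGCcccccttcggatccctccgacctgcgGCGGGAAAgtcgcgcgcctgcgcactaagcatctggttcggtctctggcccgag

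The CDC7 promoter held 2 such matches and the others 1 each. In CDC6 and GINS1 the match lay just after the start site, at bases 8 to 15 and 6 to 13. The CCAAT box was found on either strand for 8 of the 10 genes, compared with 39.72% of all genes, and the letters TTTGAA of the cell cycle genes homology region for 0 of 10, compared with 18.17%. No E2F match overlapped a CCAAT match. The other 4 genes (ORC1, ORC6, CDC45 and MCM10) had none of the 4 E2F forms in these windows. Other forms of the site were not searched, so that these promoters cannot be said to lack E2F sites. The capitals likewise mark the 4 searched forms only. A match of letters is a description of the sequence, and no binding was measured.

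The first question was how the genes responded when tagged SDS22 was degraded. Upon Dox/IAA treatment of SDS22-degron cells, RNA of all 10 genes fell, to between 34.3% (CDC45) and 50.1% (GMNN) of the untreated level, with a median log2 fold change of -1.19. Each was called lower by edgeR's quasi-likelihood test at a Benjamini-Hochberg adjusted p under 0.05, the largest adjusted p being 1.38e-06 (CDC6), and 0 were called higher. Over all tested genes, 25.5% were called lower and 26% higher, and the median log2 fold change was 0.00. By the cut-off of the study (unadjusted p under 0.05 and a log2 fold change beyond 1), 9 of the 10 genes were lower, compared with 4.02% of all genes. The exception was GMNN, which missed the fold limit with a log2 fold change of -0.997. For 10 of 10 genes the treated and untreated libraries of the degron line did not overlap, as for 59.9% of all tested genes. In RNA from a whole culture, fewer cells of a type (here, cells in the phases that express these genes) and less RNA per cell cannot be told apart.

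**Figure D1:**
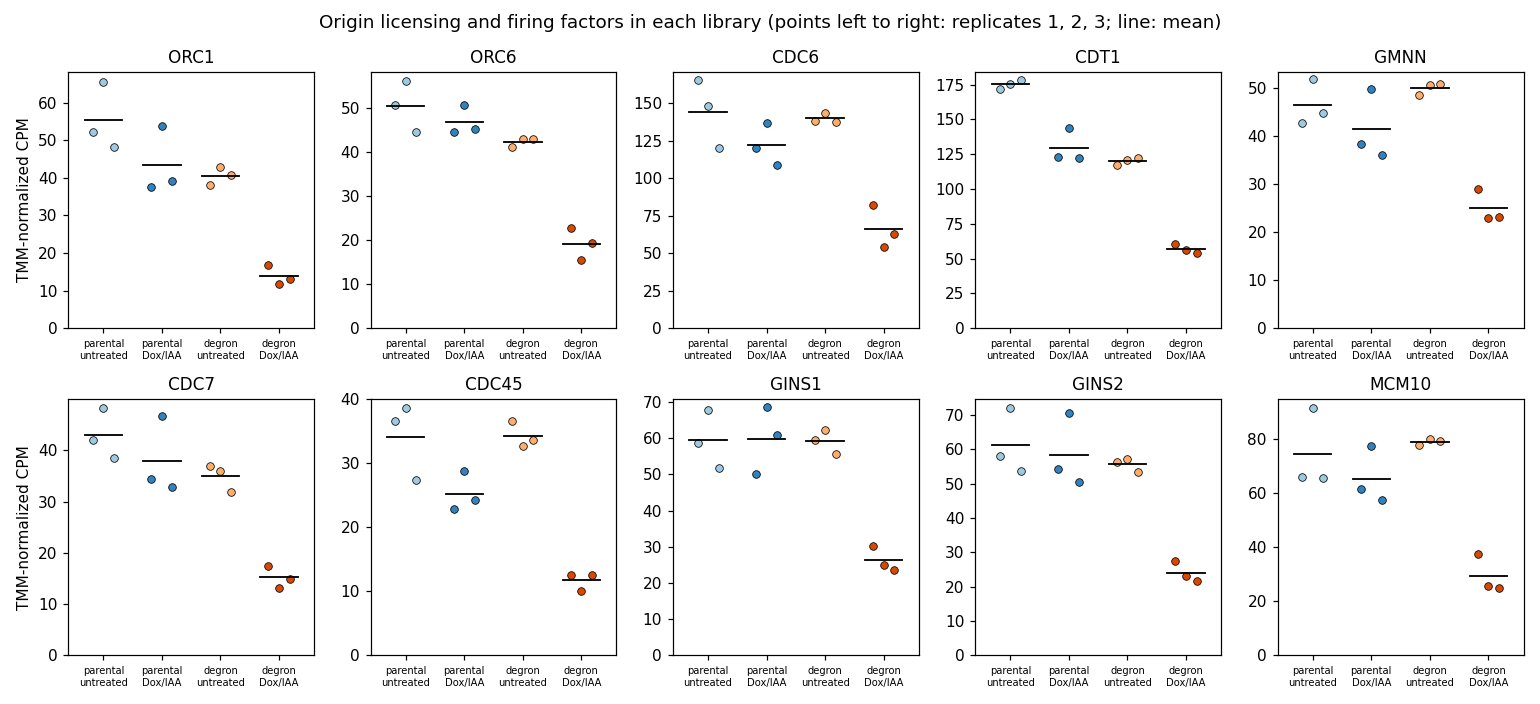
TMM-normalized CPM (y axis, linear from 0) of each of the 10 genes in every library of the 4 groups (x axis), with points for replicates 1 to 3 from left to right and a line at the mean. In every panel the 3 treated SDS22-degron libraries lie below the other 9.

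Of the genes that recognize origins, ORC1, the largest ORC subunit, was at 38.2, 42.8 and 40.8 CPM in the 3 untreated degron libraries and at 16.9, 11.8 and 13.2 CPM in the 3 treated ones. All treated libraries were therefore far below all untreated ones, and the log2 fold change was -1.54 ± 0.15 (SE; adjusted p = 1.58e-07). In parental cells ORC1 was at 52.3, 65.5 and 48.2 CPM without and 37.6, 53.7 and 39.2 CPM with Dox/IAA, and these groups overlapped. ORC6, the smallest subunit, was at 41.1, 43.0 and 42.9 CPM in untreated and 22.8, 15.5 and 19.3 CPM in treated degron libraries (log2 fold change -1.14 ± 0.11, adjusted p = 2.17e-07). Its parental libraries were at 50.8, 56.2 and 44.6 CPM without and 44.6, 50.6 and 45.2 CPM with the agents. The treated and untreated parental libraries of ORC6 overlapped as well.

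The remaining ORC subunits, which are no members of the set of 10, had smaller changes upon Dox/IAA in degron cells. ORC3 (log2 fold change -0.62, 95% confidence interval -0.84 to -0.40) and ORC5 (-0.56, -0.78 to -0.33) were called lower, as was ORC2 (-0.20, -0.36 to -0.03, adjusted p = 0.0429). The ORC2 call was lost with other scalings: its adjusted p was 0.112 with library sizes only and 0.0707 with the upper quartile. ORC4 was at 0.00 (-0.18 to 0.18). None of these intervals overlapped that of ORC1 (-1.85 to -1.22) or ORC6 (-1.38 to -0.90), although the difference between subunits was not tested itself. These 4 subunits were singled out after their values were seen.

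CDC6 and CDT1 bring the MCM helicase to ORC. CDC6 was at 139, 144 and 138 CPM in untreated and at 82.2, 54.4 and 62.7 CPM in treated degron libraries, a log2 fold change of -1.07 ± 0.13 (adjusted p = 1.38e-06). In parental cells it was at 166, 148 and 120.0 CPM without and 120.3, 137 and 109 CPM with Dox/IAA. The 3 untreated degron libraries of CDC6 were close to each other, and the parental libraries spread more widely. CDT1 was at 117, 121 and 122 CPM in untreated and at 60.2, 56.0 and 54.3 CPM in treated degron libraries, with a log2 fold change of -1.08 ± 0.07 (adjusted p = 2.48e-09). Its parental libraries were at 172, 176 and 178 CPM without and 123, 144 and 122 CPM with Dox/IAA. CDT1 was the 1 gene of the set whose treated and untreated parental libraries were also apart, without overlap.

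GMNN, whose protein restrains CDT1, was at 48.5, 50.6 and 50.8 CPM in untreated and 29.0, 22.8 and 23.1 CPM in treated degron libraries (log2 fold change -0.997 ± 0.12, adjusted p = 1.34e-06). In parental cells GMNN was at 42.7, 51.8 and 44.7 CPM without and 38.2, 49.8 and 36.0 CPM with Dox/IAA. The untreated libraries of both lines overlapped, and treated parental replicate 2 lay among the untreated ones. In the degron line CDT1 thus fell by 1.08 and its inhibitor by 0.997 on the log2 scale.

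Among the firing factors, CDC7, the catalytic subunit of the kinase that acts on loaded MCM, was at 37.0, 36.0 and 31.9 CPM in untreated and 17.4, 13.2 and 14.99 CPM in treated degron libraries (log2 fold change -1.20 ± 0.14, adjusted p = 8.03e-07). In parental cells CDC7 was at 42.04, 48.2 and 38.5 CPM without and 34.4, 46.7 and 32.8 CPM with Dox/IAA. CDC45, which joins MCM in the active helicase, had the lowest log2 fold change of the set, -1.54 ± 0.13 (adjusted p = 3.11e-08). It was at 36.7, 32.7 and 33.7 CPM in untreated and at 12.6, 10.1 and 12.6 CPM in treated degron libraries. Its parental libraries were at 36.6, 38.6 and 27.4 CPM without and 22.9, 28.8 and 24.2 CPM with the agents. The lowest untreated parental library of CDC45 lay below the highest treated one.

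GINS1 and GINS2 are subunits of the 4-protein GINS complex. GINS1 was at 59.6, 62.2 and 55.7 CPM in untreated and 30.2, 24.9 and 23.7 CPM in treated degron libraries (log2 fold change -1.17 ± 0.12, adjusted p = 2.56e-07), and at 58.7, 67.9 and 51.7 CPM without and 50.1, 68.5 and 61.0 CPM with Dox/IAA in parental cells. GINS2 was at 56.4, 57.1 and 53.5 CPM in untreated and 27.6, 23.1 and 21.6 CPM in treated degron libraries (-1.21 ± 0.13, adjusted p = 3.92e-07), and at 58.0, 72.1 and 53.7 CPM without and 54.3, 70.5 and 50.4 CPM with Dox/IAA in parental cells. Both had widely overlapping parental groups. GINS2 overlaps GSE1 on the opposite strand, and because the strand setting of the counting is not given in the sources used here, reads of GSE1 within its count cannot be told apart. MCM10, which helps to activate the assembled helicase, was at 77.8, 80.3 and 79.5 CPM in untreated and 37.8, 25.8 and 25.0 CPM in treated degron libraries (log2 fold change -1.42 ± 0.15, adjusted p = 3.2e-07). Its parental libraries were at 66.1, 91.6 and 65.8 CPM without and 61.5, 77.5 and 57.5 CPM with Dox/IAA. Untreated degron levels of MCM10 lay inside the parental range.

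The next question was whether Dox, IAA and induced TIR1 had an effect where SDS22 is not tagged. In parental cells the median log2 fold change of the 10 genes was -0.18, with a range from -0.44 to 0.01. Called lower were 2 of 10, CDT1 (-0.43 ± 0.07, adjusted p = 0.000134) and CDC45 (-0.44 ± 0.12, adjusted p = 0.0104), and 0 were called higher. Over all tested genes, 15.7% were called lower and 15.9% higher, and the libraries of 1 gene (CDT1) did not overlap, compared with 41.3% of all genes. However, same-numbered parental libraries deviated together, and 8 of 10 genes, all but ORC6 and GINS1, were lower with Dox/IAA in each of the 3 same-numbered pairs. The share of all tested genes that did so was not computed, so that whether 8 of 10 is unusual is not known. The 10 genes also moved together by library, so that these are not 8 separate observations. ORC1, for example, went from 52.3 to 37.6, from 65.5 to 53.7 and from 48.2 to 39.2 CPM. With the replicate number as a block over all 12 libraries, 3 genes were called lower, ORC1 being added (-0.35, adjusted p = 0.0221), compared with 17.9% of all tested genes. With the block in the 6 parental libraries alone, a fit chosen after seeing the data, 5 genes were called lower, compared with 19.8% of the 16013 genes tested there. These were CDT1, CDC45, ORC1 (adjusted p = 0.00126), CDC6 (-0.24, adjusted p = 0.0134) and MCM10 (-0.18, adjusted p = 0.0326). ORC1 was also added by the likelihood ratio test (adjusted p = 0.0443). In the fit without a block, the count changed when a library was left out. Without treated parental replicate 2 it was 5, with ORC1, GMNN and CDC7 added, and the median was -0.33. Without untreated parental replicate 3 it was 4, with ORC1 and CDC6 added. Without treated parental replicate 1 or untreated parental replicate 2 it was 1, since CDC45 was lost (adjusted p = 0.0526 and 0.0594). The share of all tested genes called without these libraries, or by the likelihood ratio test, was not computed.

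The difference between both Dox/IAA effects was tested as the interaction of cell line and treatment. All 10 genes fell more in SDS22-degron than in parental cells (median log2 difference -1.07), and each was called lower, compared with 8.35% of all tested genes. The number called higher was 0, compared with 6.03%. By the cut-off of the study 7 of 10 were lower, against 2.46% of all genes, while CDC6, CDT1 and GMNN missed the fold limit. The value was lowest for MCM10, at -1.23 (95% confidence interval -1.66 to -0.81, adjusted p = 0.000552). It was highest for CDT1, at -0.65 (-0.85 to -0.44, adjusted p = 0.000292), which also fell in parental cells. The largest adjusted p was that of CDC6, 0.00385.

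**Figure D2:**
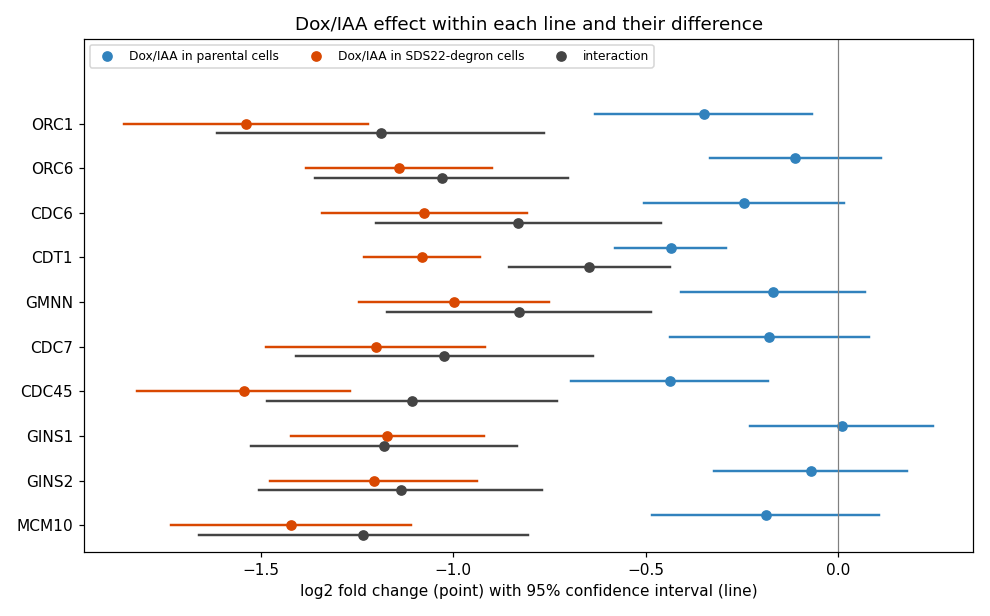
Log2 fold change (x axis) of each gene (y axis) upon Dox/IAA in parental cells, in SDS22-degron cells, and the difference between both effects (interaction). Points are estimates and lines 95% confidence intervals; all 10 intervals of the degron effect and of the interaction lie below 0, while 7 of the 10 parental intervals, from the fit without a block, include 0.

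Comparing the treated lines, all 10 genes were lower in SDS22-degron than in parental cells (median log2 fold change -1.19). They ranged from -1.64 ± 0.15 (ORC1, adjusted p = 1.19e-07) to -0.72 ± 0.12 (GMNN, adjusted p = 7.58e-05). Over all tested genes, 23.1% were called lower and 21.8% higher, and 0 members were called higher. By the cut-off of the study 8 of 10 were lower, against 3.38% of all genes, with CDC6 (-0.88) and GMNN (-0.72) outside it. The libraries did not overlap for 10 of 10, against 52.9% of all genes. This comparison shares the treated degron libraries with the comparison within that line, so that they are not independent of each other.

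Before treatment, the lines differed less. The median log2 fold change of untreated SDS22-degron against untreated parental cells was -0.09, with a range from -0.54 to 0.10. CDT1 (-0.54 ± 0.07, adjusted p = 1.26e-05) and ORC1 (-0.45 ± 0.13, adjusted p = 0.0176) were lower in the degron line, which makes 2 of 10 called lower and 0 called higher, compared with 15% and 13.2% of all tested genes. The libraries did not overlap for 4 of 10 genes (ORC1, ORC6, CDT1 and CDC7), close to the 43.5% of all genes. ORC6 (-0.26, adjusted p = 0.0806) and CDC7 (-0.30, adjusted p = 0.0829) did not pass the test. The ORC1 call was lost without untreated parental replicate 2 (adjusted p = 0.128) or without untreated degron replicate 1 (adjusted p = 0.0731), which left a count of 1. The share of all tested genes called without these libraries was not computed.

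Position on the chromosome moved with this difference. CDT1, ORC6 and GINS2 lie on chromosome 16, where the median log2 fold change of all 726 tested genes between the untreated lines was -0.30. It was -0.31 between the treated lines. ORC1 and CDC7 lie on chromosome 1, with medians of -0.13 and -0.11 over 1659 genes. After subtraction of these medians, CDT1 was still called lower between the untreated lines, at -0.25 (adjusted p = 0.0147), and ORC1 was not, at -0.31 (adjusted p = 0.102). All 10 genes remained called lower between the treated lines after the same subtraction. The subtraction treats 1 median per chromosome as exact and would not remove a shift of part of a chromosome. The median of chromosome 16 was -0.03 for the Dox/IAA effect in degron cells and -0.02 in the interaction.

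**Figure D3:**
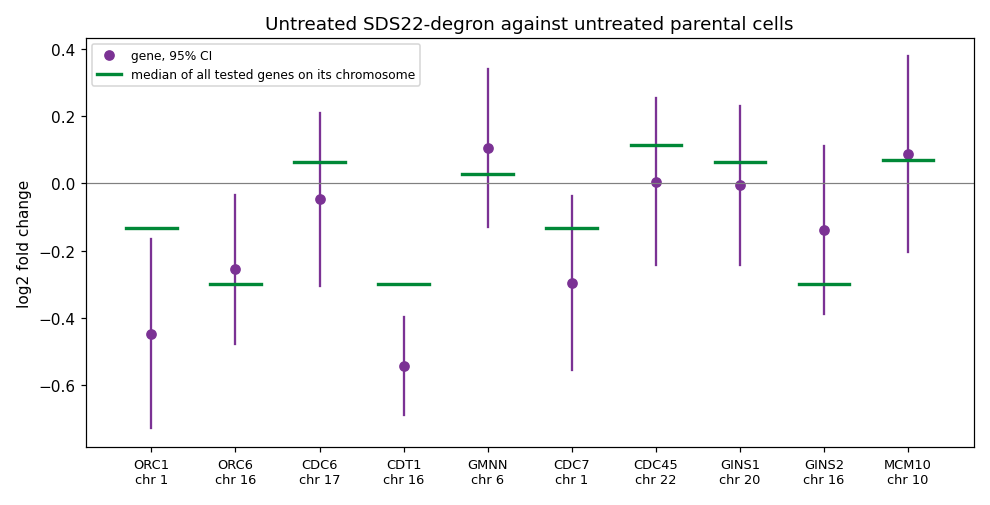
Log2 fold change (y axis) of untreated SDS22-degron against untreated parental cells for each gene, with 95% confidence intervals, and green bars at the median of all tested genes of its chromosome. The chromosome 16 bars lie at -0.30, and CDT1 (-0.54) lies below its bar with its whole interval.

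CDT1 activity depends on its balance with geminin, and the ratio of their counts within a library needs no normalization between libraries. The counts are of RNA, however, and the balance of the proteins was not measured. The ratio of CDT1 to GMNN counts was 4.03, 3.39 and 3.98 in untreated and 3.21, 2.89 and 3.39 in treated parental libraries. It was 2.42, 2.40 and 2.41 in untreated and 2.08, 2.45 and 2.35 in treated SDS22-degron libraries. The ratio was lower in every degron than in every parental library of the same treatment, and it overlapped between treated and untreated libraries within each line. The log2 ratio of degron minus parental cells was -0.65 without and -0.47 with treatment (both exact two-sided permutation p = 0.1, the smallest that 3 against 3 libraries allow; adjusted over 4 comparisons p = 0.2). Upon Dox/IAA the log2 ratio changed by -0.08 in degron cells (exact permutation p = 0.4, adjusted p = 0.4) and by -0.26 in parental cells (exact permutation p = 0.2, adjusted p = 0.267). By this test no comparison of 3 against 3 libraries could reach a p under 0.05. Over all 12 libraries the log2 ratio was 1.23 in degron and 1.79 in parental cells, a difference of -0.56. Permuting the line within each treatment, a test chosen after seeing the data, gave the smallest p of 400 arrangements (exact two-sided permutation p = 0.005). The separation described above fixes this outcome, so the test adds nothing to it. With 1 line of each kind, the libraries do not replicate a difference between lines. CDT1 lies on chromosome 16 with its median of -0.30 between the untreated lines, whereas the median of chromosome 6, which holds GMNN, was 0.03.

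**Figure D4:**
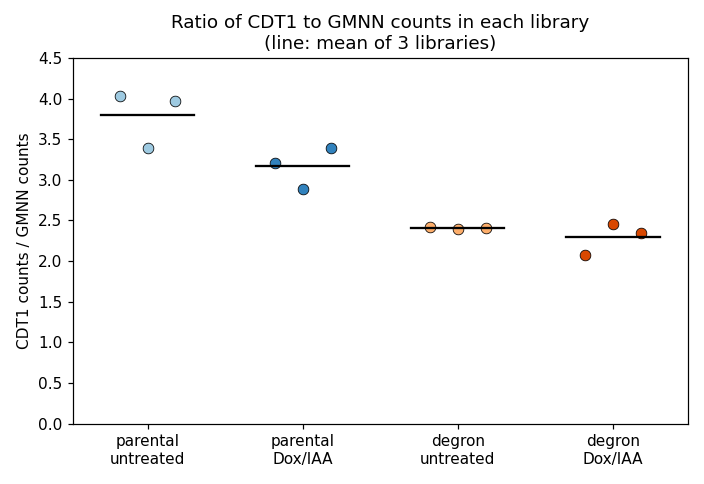
Ratio of CDT1 to GMNN counts (y axis, linear from 0) in each library of the 4 groups (x axis), with a line at the mean. All 6 parental libraries (2.89 to 4.03) lie above all 6 SDS22-degron libraries (2.08 to 2.45).

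Levels were compared between genes per kb of the length deposited with the counts, which is shorter than the chromosomal span (3157 bases for ORC1, for example). The order depends on this length, and the length of the transcripts present was not measured. CDT1 was highest in all 4 groups and CDC6 followed. In untreated parental cells CDT1 was at 52.5 ± 0.87 and CDC6 at 28.2 ± 4.49 CPM per kb (SD, n = 3), and the other 8 genes were between 11.7 (ORC6) and 18.8 (GINS2), with overlapping libraries between all neighbours in that order. In treated degron cells CDT1 was at 17.03 ± 0.91 and CDC6 at 12.98 ± 2.79 CPM per kb. They were followed by GMNN at 10.1 ± 1.40, whose libraries overlapped with those of CDC6 but not with those of GINS2 at 7.38 ± 0.96. The other 6 genes were between 4.14 (CDC45) and 6.46 (GINS1), again with overlap between neighbours.

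The 10 genes moved closely together. Pearson's r between pairs of them over the 12 libraries was between 0.877 and 0.992, with a median of 0.952 over 45 pairs. After the group means were removed it was between 0.305 and 0.939, with a median of 0.758. These points share their libraries and the low level in the treated degron group, and the values are given as a description. Among the tested genes outside the set, those most like the mean profile of the 10 genes over the 12 libraries were MCM4 (r = 0.998), EXO1 (r = 0.996), BRCA1 (r = 0.995), WDHD1 (r = 0.994) and LMNB1 (r = 0.994).

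Other genes of the pathway were taken from lists written by step from general knowledge, but with earlier results of these data known. Of 13 further licensing genes, 10 were called lower and 0 higher upon Dox/IAA in degron cells (median log2 fold change -0.75). Over all tested genes, 25.5% were called lower and 26% higher there. All 6 subunits of the MCM helicase were among the 10 licensing genes called lower, at -0.91 (MCM6) to -1.38 (MCM7). In the interaction 7 of the 13 were lower and 0 higher, against 8.35% and 6.03% of all tested genes. MCM4 (-1.15 ± 0.15, adjusted p = 7.31e-05) and MCM7 (-0.93 ± 0.10, adjusted p = 3.06e-05) were lowest. MCM4 went from 391 to 151 CPM in degron and from 426 to 366 CPM in parental cells. KAT7, a histone acetyltransferase that acts at origins, was the highest at 0.08 (adjusted p = 0.591).

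Of 21 further firing genes, 20 were called lower and 1 higher upon Dox/IAA in degron cells, with a median of -0.94, and 19 were lower and 0 higher in the interaction. The shares of all tested genes were 25.5% and 26% in degron cells, and 8.35% and 6.03% in the interaction. GINS4 was the lowest in the interaction at -1.66 ± 0.22 (adjusted p = 7.55e-05), going from 36.6 to 11.1 CPM in degron and from 36.0 to 34.7 CPM in parental cells. GINS3, the remaining GINS subunit, was at -0.71 ± 0.11 (adjusted p = 3.14e-05) upon Dox/IAA in degron cells. CLSPN, which encodes the fork protein claspin, was at -1.43 ± 0.20 in the interaction (adjusted p = 0.000159). POLE4, an accessory subunit of DNA polymerase epsilon, was the 1 gene called higher in degron cells, at 0.28 ± 0.11 (adjusted p = 0.0407), and had an interaction of 0.09 (adjusted p = 0.758). DBF4, the regulatory partner of CDC7, was at -0.98 ± 0.12 in degron cells (adjusted p = 1.9e-06), near CDC7 itself. GINS3 and DBF4 were named after their values were seen, as partners of members.

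**Figure D5:**
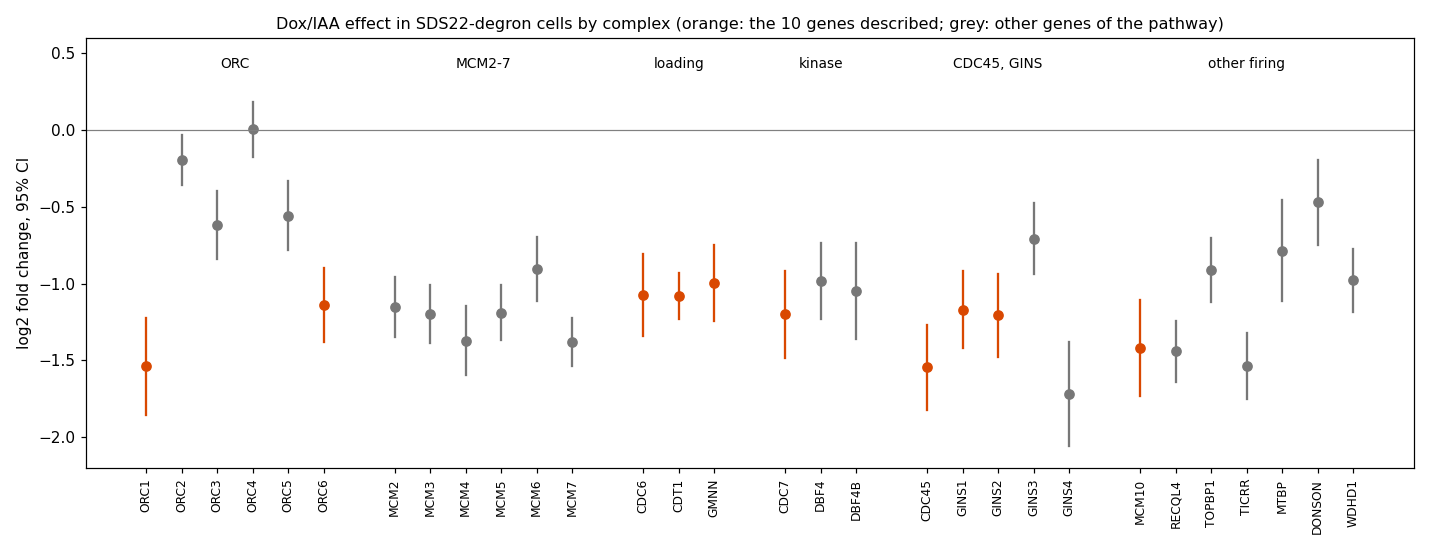
Log2 fold change upon Dox/IAA in SDS22-degron cells (y axis, points with 95% confidence intervals) for genes of the pathway grouped by complex, with the 10 genes of the set in orange. ORC2 to ORC5 lie between -0.62 and 0.00, above ORC1 (-1.54), ORC6 (-1.14) and all 6 MCM subunits.

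In parental cells 6 of the 13 licensing genes and 3 of the 21 firing genes were called lower and 0 higher, with medians of -0.22 and -0.08. Over all tested genes, 15.7% were called lower and 15.9% higher there, so that the firing genes called lower were near that share. Between the untreated lines 3 licensing genes were lower and 1 higher, and 4 firing genes were lower and 0 higher. Of all tested genes, 15% were lower and 13.2% higher, and the firing genes called lower were again near that share. Between the treated lines 9 of 13 licensing genes were lower and 0 higher, and 20 of 21 firing genes were lower and 1 higher. Of all tested genes, 23.1% were lower and 21.8% higher.

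A list of 10 genes that restrain licensing or firing moved in the same direction for the most part. Upon Dox/IAA in degron cells 8 were called lower and 1 higher, with a median of -0.70, and in the interaction 6 were lower and 0 higher. FZR1 was the 1 called higher (0.23, adjusted p = 0.0179), and it was also higher in parental cells (0.29, adjusted p = 0.00771). Its interaction was -0.06 (adjusted p = 0.758). The shares of all tested genes were 25.5% and 26% in degron cells, and 8.35% and 6.03% in the interaction. The lowest in the interaction were CDK1, the mitotic kinase that blocks licensing (-1.18 ± 0.16, adjusted p = 9e-05), and CCNF, which encodes cyclin F, a ubiquitin ligase subunit (-1.02 ± 0.15, adjusted p = 0.000265). The highest was CUL4B, a scaffold of the ligases that degrade CDT1, at 0.15 (adjusted p = 0.366). In parental cells 4 of the 10 were lower and 1 higher, against 15.7% and 15.9% of all tested genes. Between the untreated lines 2 were lower and 0 higher, near the 15% of all tested genes called lower (13.2% were higher). Between the treated lines 6 were lower and 0 higher, against 23.1% and 21.8% of all tested genes.

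Genes of proliferation changed beside the 10 genes. Of 14 such genes, 12 were called lower and 1 higher upon Dox/IAA in degron cells, with a median of -1.49, and 2 were lower and 0 higher in parental cells. The shares of all tested genes were 25.5% and 26% in degron cells, and 15.7% and 15.9% in parental cells. The parental count of genes called lower was near its share. In the interaction 12 were lower and 1 higher, against 8.35% and 6.03% of all tested genes. BUB1, a kinase of the spindle checkpoint, was at -1.42 ± 0.18 (adjusted p = 6.25e-05), and CCNB1, which encodes cyclin B1, at -1.41 ± 0.17 (adjusted p = 5.39e-05). CCNB1 went from 284 to 87.6 CPM in degron and from 254 to 209 CPM in parental cells. CDKN1A, which encodes the p21 inhibitor of cyclin-dependent kinases, was higher at 0.65 ± 0.12 (adjusted p = 0.0011). It was at 263 and 273 CPM in untreated and treated parental cells, and at 504 and 824 CPM in untreated and treated degron cells. Between the untreated lines 1 of these 14 genes was lower and 6 were higher in the degron line, against 15% and 13.2% of all tested genes. Between the treated lines 12 were lower and 1 higher, against 23.1% and 21.8%. The part of the number of cycling cells in the changes of the 10 genes was not tested.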

How the data were processed

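RNA was sequenced from 12 libraries of HCT116 cells, grouped by their labels into 4 conditions of 3. Per the labels, poly-A RNA was made into stranded libraries and read as single reads. The authors deposited raw counts per gene, without normalization, with each gene's GC content as a percent, its length and its position. The submitters' processing notes name cutadapt 1.15, STAR 2.5.2b, Bowtie2 2.3.3.1, SAMtools 1.5, featureCounts 1.5.3 and the build GRCh38, with no role for each. The annotation release and the strand setting of the counting are not given in the sources used here.

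Low counts were removed by filterByExpr (minimum count 10, by group). After TMM normalization, a model with 4 group means and no block was fitted in edgeR 4.0.16 (R 4.3.3), and comparisons used the quasi-likelihood F test. Adjusted p-values of this fit are Benjamini-Hochberg values over the 16657 tested genes, called under 0.05. Those of the alternative fits were adjusted in the same way over the genes that each fit tested. The exception is the CDT1 to GMNN ratio, which was compared by exact permutation and adjusted over its 4 comparisons. Standard errors and 95% intervals came from the F statistic. At this depth the median standard error was 0.110 between groups and 0.156 in the interaction. Log2 CPM for correlations used a prior count of 2.

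The 10 genes and all lists were chosen with earlier results of these data known. Named beside them were, from each list, the 2 lowest and the highest gene in the interaction, and the 5 genes most like the mean profile. The other genes named, among them ORC2 to ORC5, MCM6, GINS3 and DBF4, fall outside this rule. The results were recomputed with DESeq2 1.42.0, the likelihood ratio test, other scalings and filters, only the groups compared, the cut-off of the study, a GC correction (loess of each library's deviation on GC), a replicate block, subtraction of chromosome medians and each library left out. Deviations of same-numbered libraries from their group means correlated over 0.1 in all 3 pairs between the parental groups (0.124 to 0.246) and between the treated lines (0.101 to 0.138), so that the numbers were taken to pair these libraries. This pairing comes from the data, not from the labels. Simulated counts with planted changes served as a check of the code. Recovery of planted changes in the interaction missed its initial limit, and the limit was lowered afterwards. The estimates were unbiased, but part of the planted changes was not found. A gene that was not called in the interaction may therefore still differ.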

Additional observations from a re-analysis of the deposited data

Results flagged for a closer look

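All 10 genes were flagged because the effect of Dox/IAA differed between SDS22-degron and parental cells by the interaction test of edgeR. The log2 difference was -1.19 for ORC1 (adjusted p = 0.000696) and -1.03 for ORC6 (adjusted p = 0.000265), both of the origin recognition complex. For the loading factors it was -0.83 for CDC6 (adjusted p = 0.00385) and -0.65 for CDT1 (adjusted p = 0.000292), and for their restraint, GMNN, it was -0.83 (adjusted p = 0.00225). For the firing factors it was -1.02 for CDC7 (adjusted p = 0.00109), -1.11 for CDC45 (adjusted p = 0.000459), -1.18 for GINS1 (adjusted p = 0.000136), -1.14 for GINS2 (adjusted p = 0.000294) and -1.23 for MCM10 (adjusted p = 0.000552). Groups held 3 libraries each, so that no test for a library far from its group was made.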

How the results depend on the processing

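For the Dox/IAA effect in SDS22-degron cells, for the treated lines and for the interaction, all 10 genes stayed called lower under every alternative that used the adjusted p. With the cut-off of the study 9, 8 and 7 of them were lower. Without single libraries the median ranged from -1.31 to -1.12, from -1.33 to -1.08 and from -1.18 to -0.96. In parental cells, the 2 genes called lower became 3 with the likelihood ratio test, 4 without a filter, 5 with the replicate block in the parental libraries only and 0 with the cut-off of the study, and 1 to 5 without single libraries, with medians from -0.33 to -0.08. Between the untreated lines, 2 became 4 without a filter, 4 with only the groups compared, 0 with the cut-off of the study and 1 with the chromosome shift removed, and 1 to 3 without single libraries. The share of all tested genes called lower was computed for the replicate block in the parental libraries (19.8%). For the other counts that changed it was not computed, so that they are no result about the 10 genes. The cause of these changes was not tested.

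Signs turned only for values that were not called. Between the untreated lines, GINS1 was at 0.0213 with library sizes only, 0.0302 with the upper quartile, 0.0124 with the GC correction and 0.0152 with GC correction and replicate block, and CDC45 at -0.0057 without a filter, -0.021 with the GC correction, -0.0149 with GC correction and replicate block and -0.11 with the chromosome shift removed. With that shift removed, ORC6 was at 0.042 and GINS2 at 0.16. Without single libraries, GINS1 ranged from -0.10 to 0.12, CDC45 from -0.13 to 0.12, CDC6 from -0.17 to 0.069 and GINS2 from -0.23 to 0.0148, and in parental cells GINS1 from -0.10 to 0.13 and GINS2 from -0.23 to 0.0676.

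With the replicate block over all libraries, 10 genes were lower within degron cells, 3 in parental cells (with ORC1), 3 between the untreated lines (with CDC7), 10 in the interaction and 10 between the treated lines. The block over the treated libraries only also left 10. With a block, the share of all tested genes was computed for parental cells only. Between untreated and treated degron cells 0 of 3 same-numbered pairs correlated over 0.1 in their deviations, and between the untreated lines 1 of 3. By this limit the numbers were not taken to pair these libraries. Between the untreated lines, same-numbered pairs (r of 0.0584 to 0.118) still all lay above differently numbered ones (-0.0795 to -0.0111). Within degron cells both ranges overlapped (-0.00926 to 0.0953 against -0.0988 to 0.0685). Whether the numbers pair the untreated lines was not tested. Of all libraries, 12 of 12 correlated best on average with their own number, a hint from the data and not from the labels.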
